A study of Canis lupus familiaris with 4 samples.

Results

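H19, IGF2, IGF2R, CDKN1C, PHLDA2, PEG3, MEST and GRB10 are 8 imprinted genes, of which normally only the copy inherited from a given parent is active. Their RNA was followed in stem-like mammary tumour cells of the dog with and without macrophages. Their probes were found as the non-control probes of the array whose gene name is a listed symbol or whose description gives it in brackets. This gave 9 probes of 43603, for 5 of the 8 genes and of 13350 symbols on the array: 1 for H19, 2 for IGF2, 3 for IGF2R, 1 for MEST and 2 for GRB10. CDKN1C and PHLDA2 had no probe by this rule and are not analysed here. PEG3 had none by symbol, and 3 probes whose description names the paternally expressed 3 gene, without the symbol in brackets, are kept apart from the count. H19 was included because its ratio of co-culture over single culture was among the lowest in P114, so its co-culture values are a description and carry no test.

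The study took 2 dog lines of mammary cancer, P114 and CMT-U27, and compared their sorted stem-like cells after co-culture with tumour-associated macrophages and after single culture, at day 3 in both cultures. All groups were selected by flow cytometry as Sca1+/EpCAM+/CD44+, a rare fraction of each line, and grown in RPMI-1640 with serum. Each line had 2 two-colour arrays, and every array held the co-culture of a line in one dye and its single culture in the other. The co-culture was in Cy3 on P114 replicate 1 and CMT-U27 replicate 2, and in Cy5 on P114 replicate 2 and CMT-U27 replicate 1. Each line is 1 established line, and the labels do not say whether macrophages were separated from the cancer cells before RNA was extracted, so the co-culture channel may hold RNA of both. They call the arrays biological replicates without saying that they came from separate cultures, so the p-values measure the spread between these arrays, which may be technical. P114 replicate 1 stood apart from the other arrays, with 89.4% of spots in Cy3 and 91.7% in Cy5 well above background by the scanner software, against 57.9% to 65.7% elsewhere. Dyes follow the label of each channel, and a mislabelled channel order in the records of a line would turn the sign of all its co-culture ratios.

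H19 and IGF2 lie next to each other at the same imprinted locus. In mammals studied so far, H19 is transcribed from the maternal copy as a long non-coding RNA and IGF2, a growth factor of fetal tissue, from the paternal copy, under a shared control region that the insulator protein CTCF binds on the maternal copy only. IGF2R removes IGF2 by carrying it to lysosomes, GRB10 is an adaptor that restrains signalling by the insulin and IGF1 receptors, MEST encodes a hydrolase-like membrane protein, and PEG3 encodes a zinc finger protein. H19 is abundant in the fetus, falls after birth in most tissues and is often found again in tumours, breast tumours among them.

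The probe sequences are shown for H19 and its neighbour IGF2, and for GRB10, whose probes disagreed. All are given 5′ to 3′ as the deposited files list them, which place them on the minus strand of CanFam3.1, and no letter is marked.
H19 (chr18:46204929-46204988): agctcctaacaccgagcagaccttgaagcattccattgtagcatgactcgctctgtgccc
IGF2 a (chr18:46297523-46297582): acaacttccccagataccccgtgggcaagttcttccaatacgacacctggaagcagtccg
GRB10 a (chr18:1904759-1906747): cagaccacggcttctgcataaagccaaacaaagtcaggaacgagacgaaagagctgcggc
GRB10 b (chr18:1890911-1892841): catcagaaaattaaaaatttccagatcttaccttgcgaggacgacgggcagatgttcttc
The H19 probe matches the non-coding transcript NR_027327 from its base 2263, and 53.3% of its 60 bases are G or C. Both IGF2 probes lie on the same chromosome and strand, 89048 and 92535 bases from the end of the H19 probe. The GRB10 probes are also 60 bases long but cover 1989 and 1931 bases of the genome, so each spans an intron. The letters a, b and c number the probes of a gene in the order of the plots.

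H19 was the only one of the 8 tested probes of these genes whose co-culture levels in P114 lay below both single-culture levels. Its level, a log2 intensity after background correction and normalization, was 8.28 in P114 co-culture replicate 1 and 7.73 in replicate 2, against 9.37 and 9.51 in P114 single culture. The co-culture channels lay below both single-culture channels, and this arrangement was found for 5.99% of 28692 tested probes. H19 was chosen for its low P114 ratio, which favours this arrangement, so this and its rank below are descriptions. The log2 ratio of co-culture over single culture was -1.10 on replicate 1 and -1.78 on replicate 2, a mean of -1.44 ± 0.48 (SD, n = 2 arrays), or 2.71-fold lower in co-culture. The direction was the same with the dyes exchanged. Over all tested probes, however, the ratios did not repeat between the arrays of a line, with Pearson's r of -0.15 in P114 and 0.05 in CMT-U27. In RNA from whole cultures, fewer cells with the transcript and less of it per cell cannot be told apart.

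Before normalization the H19 spot on P114 replicate 1 had a mean intensity of 196 in the co-culture channel over a local background of 20.5, against 838 over 39 in the single-culture channel. On P114 replicate 2 the co-culture channel read 153 over 37, against 554 over 24 in single culture. All 4 P114 channels were well above background by the scanner software, and neither dye alone carried the low values. By its mean ratio H19 ranked 30th from the lowest of the tested probes and 19th among those with 1 sign on both P114 arrays. A mean log2 ratio of -1 or lower with 1 sign on both arrays was found for 32 probes, or 0.112% of those tested. In CMT-U27, where 0 member probes met that limit, it was met by 0.0349%.

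In CMT-U27 the H19 levels were 7.05 and 7.00 in co-culture, against 7.07 and 7.02 in single culture. These 4 values overlapped between cultures and lay close to the dim end of the arrays. The log2 ratios were -0.01 on both arrays. The probe was well above background in the Cy5 channel of each array and in neither Cy3 channel, that is, on 1 of 2 arrays per culture. Spot intensities were 61.4 over 41 and 57.0 over 32 in co-culture, and 47.3 over 25 and 59.0 over 42.5 in single culture. A lower level of H19 in CMT-U27 co-culture was not detectable at this signal.

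**Figure D1:**
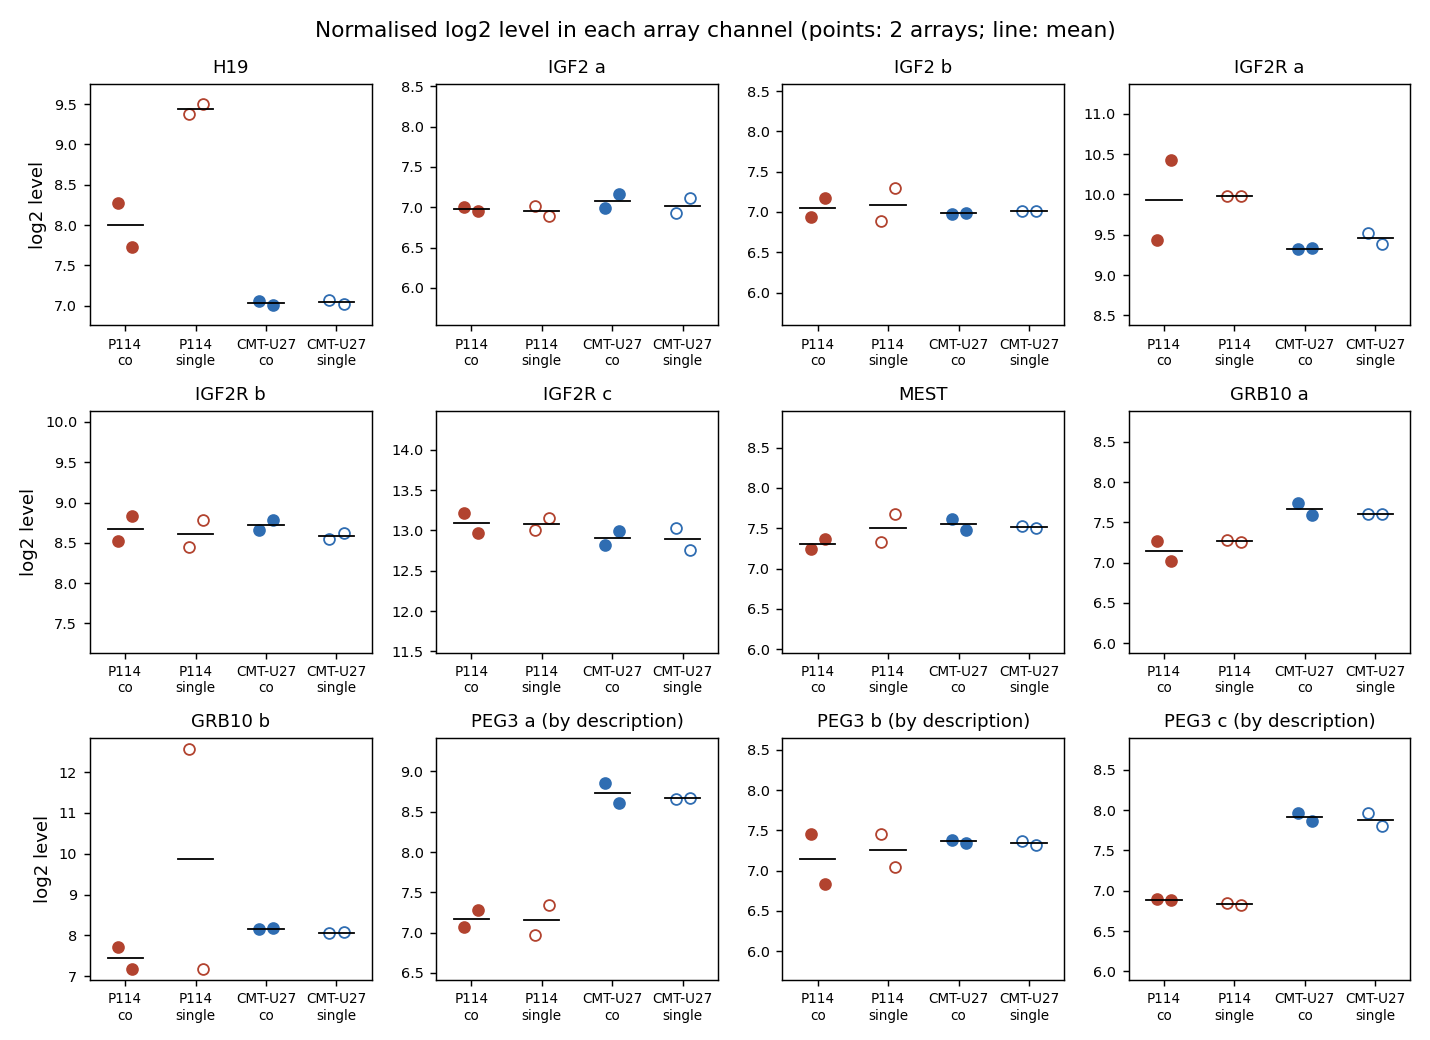
Normalised log2 level of each probe in every array channel, with 1 panel a probe and vertical axes that differ in position and range; filled points are co-culture, open points single culture, and the black line is the mean of 2 arrays. H19 stood at 8.28 and 7.73 in P114 co-culture, 9.37 and 9.51 in P114 single culture and 7.00 to 7.07 in all CMT-U27 channels, and GRB10 b had 1 high channel at 12.6.

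No other of these 8 tested probes had P114 co-culture levels clear of its single-culture levels, with 0 of 8 above (background 8.42%). IGF2 b, the IGF2 probe that could be tested, stood at 6.93 and 7.17 in P114 co-culture, against 6.89 and 7.29 in P114 single culture. Its log2 ratios were 0.04 and -0.12 in P114, and -0.03 and -0.01 in CMT-U27. The cultures overlapped in P114. In CMT-U27 both co-culture levels, 6.98 and 6.99, lay just below both single-culture levels, 7.01 on each array, where the probe was not well above background in any channel. IGF2 a was well above background in both channels of P114 replicate 1 alone and was left out of the tests, with ratios of -0.01 and 0.06 in P114 and of 0.06 on both CMT-U27 arrays.

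IGF2R a, with levels of 9.44 and 10.42 in P114 co-culture against 9.98 and 9.98 in P114 single culture, had ratios of opposite sign on the arrays, -0.54 and 0.45. IGF2R c did the same at a smaller size, with 0.22 and -0.18 in P114 and -0.21 and 0.24 in CMT-U27. IGF2R b was slightly positive on all 4 arrays, at 0.08 and 0.05 in P114 and 0.11 and 0.17 in CMT-U27. With median centring in place of loess, which moved the median of all tested CMT-U27 ratios to 0.68, the CMT-U27 ratios of IGF2R a, b and c were 0.94, 0.99 and 1.48 and were called, IGF2R a with its sign turned from -0.13. The 3 IGF2R probes, which match 1 transcript on chromosome 1 at its bases 7350, 7946 and 8356, gave no common direction in P114. MEST was at 7.24 and 7.36 in P114 co-culture, against 7.32 and 7.67 in P114 single culture, with ratios of -0.08 and -0.31. In CMT-U27 its ratios were 0.09 and -0.02, and the cultures overlapped in both lines.

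GRB10 a had ratios of -0.02 and -0.23 in P114 and of 0.14 and -0.02 in CMT-U27. GRB10 b had the lowest single ratio of all member probes, -4.84 on P114 replicate 1, beside -0.01 on replicate 2, so that its mean was -2.42 ± 3.42. The level behind it was 12.6 in the single-culture channel of replicate 1, against 7.73 in co-culture on the same array and 7.18 and 7.19 in the channels of replicate 2. That spot read 30428 in Cy5 over a local background of 21859, where the median Cy5 background of the array was 40. Local Cy5 background passed 1000 at 102 spots of that array and at 0 of P114 replicate 2. It did so at 1 spot of CMT-U27 replicate 1 and at 60 of CMT-U27 replicate 2. The GRB10 b spot on P114 replicate 1 was not marked by the scanner software and stayed in the fit, and GRB10 a gave no such value on that array. In CMT-U27 the GRB10 b ratios were 0.11 and 0.09, and both co-culture levels lay above both single-culture levels.

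**Figure D2:**
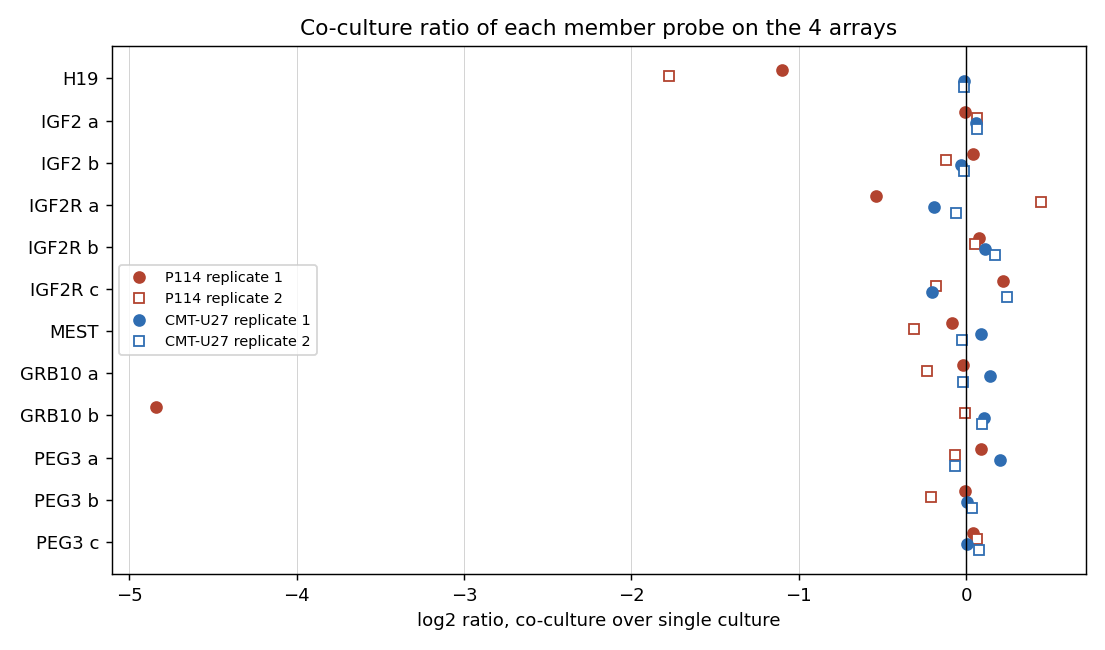
Log2 ratio of co-culture over single culture (horizontal axis) of each probe on the 4 arrays; red is P114, blue is CMT-U27, filled circles are replicate 1 and open squares replicate 2. H19 was at -1.10 and -1.78 in P114 and -0.01 in CMT-U27, GRB10 b was at -4.84 on 1 array alone, and all other points lay between -0.54 and 0.45.

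Across the member probes, the P114 ratios had the same sign on both arrays for 5 of 8 tested probes, against 43.3% of all tested probes. Of the 5, 4 were negative, H19 and GRB10 b among them. H19 was chosen for its low P114 ratio, so its place in this count was fixed in advance, and the P114 median below also includes it. The median of their mean ratios was -0.08 in P114, beside 0.01 over all tested probes, and 0.02 in CMT-U27, beside 0.02 over all. In CMT-U27 the sign was also the same for 5 of 8, against 50.7% of all tested probes. Both co-culture levels lay below both single-culture levels there for 2 probes (background 4.9%) and above them for 2 (background 19.9%). With limma fitted over all arrays and Benjamini-Hochberg adjustment, 0 member probes passed an adjusted p of 0.05 in either line. That was also the count over the whole array, 0 of 28692 (0%) in each line and for the difference of the ratios between lines (0%), although 1758 probes in P114, 928 in CMT-U27 and 821 for the difference had an unadjusted p under 0.05.

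The paternally expressed 3 probes on chromosome 1 showed small co-culture ratios. PEG3 a had 0.09 and -0.07 in P114 and 0.20 and -0.07 in CMT-U27. PEG3 b had -0.00 and -0.21 in P114 and 0.01 and 0.03 in CMT-U27, and PEG3 c had 0.04 and 0.07 in P114 and 0.00 and 0.07 in CMT-U27. In P114 PEG3 c was not well above background in any channel, and PEG3 b only on replicate 1. Both P114 co-culture levels of PEG3 c, 6.89 on each array, lay just above its single-culture levels of 6.85 and 6.82. With median centring the CMT-U27 ratios of PEG3 a and c were 0.93 and 0.50 and were called.

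The lines themselves were compared by the mean log2 level of both channels of an array. For H19 this mean was 8.82 and 8.62 on the P114 arrays, against 7.06 and 7.01 on the CMT-U27 arrays, a difference of 1.69 on the log2 scale. All 4 P114 channels lay above all 4 CMT-U27 channels, as they did for 25.2% of tested probes. The mean level is made from the same P114 channels as the ratio for which H19 was chosen, a low ratio needs a bright single-culture channel, and H19 passed the filter on dim probes through P114 alone. Its line difference is therefore a description and is given no p. Its size also depends on how background was treated, since H19 was well above background in CMT-U27 on only 1 of 2 arrays per culture.

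A called difference between the lines was common, with 18% of tested probes called higher in P114 and 20.2% called lower, or 38.2% in either direction, at an adjusted p under 0.05 by limma over all tested probes. Of the 8 tested member probes, H19 is left out of this count, since its line difference is given no p. Of the rest, 1 was called higher, IGF2R a, and 1 lower, GRB10 a.

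In single culture alone the H19 difference was 2.40 and in co-culture alone it was 0.97, both by a separate-channel limma fit. With the scanner software's own signals, which are not raised by an offset, it was 4.55, and with no background correction 2.49. The P114 arrays were scanned in session 1 and the CMT-U27 arrays in session 2, all on 1 slide, so line and scan session cannot be told apart.

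Of the other probes, IGF2R a and GRB10 a passed the test between lines. IGF2R a averaged 9.71 and 10.20 on the P114 arrays, against 9.42 and 9.36 on the CMT-U27 arrays, a difference of 0.56 (SE 0.17, adjusted p = 0.0419). The single channels overlapped between lines, and IGF2R b (-0.01, adjusted p = 0.963) and IGF2R c (0.18, adjusted p = 0.126) did not pass. The IGF2R a call did not hold with no normalization between arrays or in either culture alone. The difference was 0.81 without P114 replicate 1 and 0.32 without P114 replicate 2. GRB10 a averaged 7.27 and 7.14 on the P114 arrays, against 7.67 and 7.60 on the CMT-U27 arrays. It was lower in P114 by a log2 difference of -0.43 (SE 0.11, adjusted p = 0.0200), with no overlap between channels, as for 28.8% of tested probes. This call also did not hold with no normalization between arrays or in either culture alone.

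GRB10 b had a line difference of 0.55 with a wide 95% interval, -1.43 to 2.53 (adjusted p = 0.634). It was -0.93 without P114 replicate 1 and 2.03 without P114 replicate 2, where only the array with the spot of high local background was left. MEST differed by -0.13 (95% interval -0.42 to 0.16, adjusted p = 0.430). IGF2 b differed by 0.08 (95% interval -0.21 to 0.37) and did not pass (adjusted p = 0.653). No CMT-U27 channel was well above background for it, and the P114 replicate 1 channels, at 6.93 and 6.89, lay below all CMT-U27 channels while those of replicate 2 lay above them.

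Among the paternally expressed 3 probes, PEG3 a was called lower in P114 and PEG3 c was lower by value. PEG3 a stood at 7.07 and 7.28 in P114 co-culture and 6.97 and 7.35 in P114 single culture, against 8.86 and 8.61 in CMT-U27 co-culture and 8.66 and 8.68 in CMT-U27 single culture. All P114 channels lay below all CMT-U27 channels, with a line difference of -1.53 (SE 0.14, adjusted p = 0.000325), or 2.89-fold. This difference was called in every alternative that kept all arrays, with a size of -4.29 by the scanner software's signals. PEG3 c was at least 2.01-fold lower in P114 in co-culture and at least 1.97-fold lower in single culture. Such a bound is the mean of the brighter line over the mean, per array, of the dim signal or the lowest signal well above background, whichever was higher. PEG3 c passed the filter on dim probes through CMT-U27 alone. Its fitted difference, -1.04, is therefore a description with no call, and it was -5.44 with scanner signals. With no normalization between arrays it did not pass (adjusted p = 0.207). PEG3 b, nearer the start of the same transcript, differed by -0.16 (adjusted p = 0.506).

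Without P114 replicate 1, the array that stood apart, the line difference was 1.58 for H19, -0.50 for GRB10 a, -1.39 for PEG3 a and -1.05 for PEG3 c. The lone P114 array is there assumed to vary like the CMT-U27 arrays, so no p is given. In that setting IGF2 b stood at 0.24 and PEG3 b at -0.41.

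**Figure D3:**
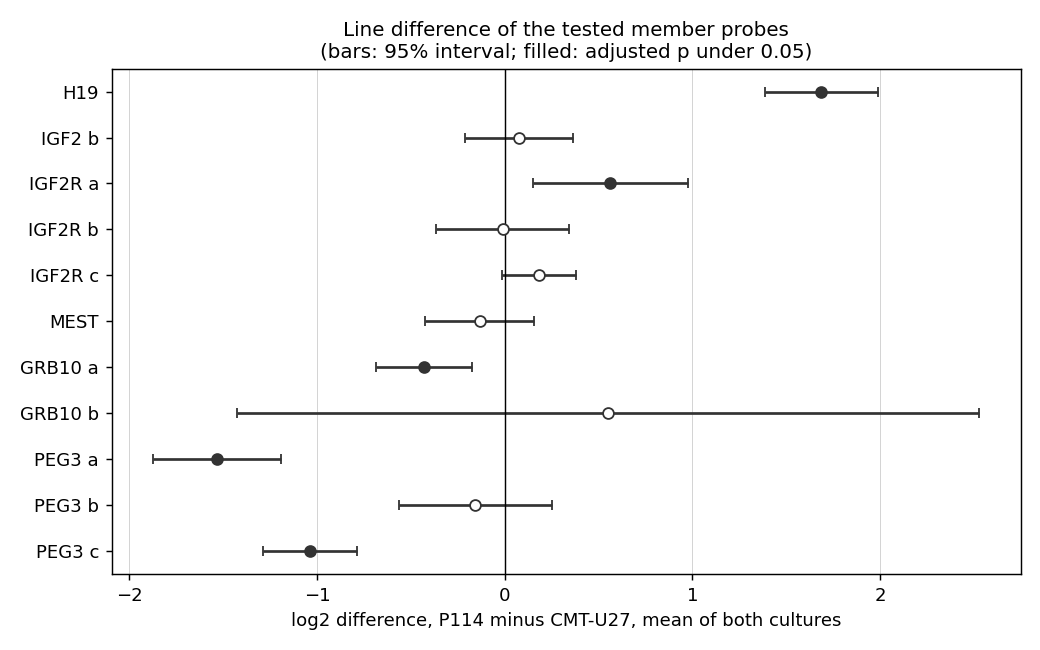
Difference of the mean log2 level of both cultures, P114 minus CMT-U27, for each tested probe, with its 95% interval from limma. Filled points passed an adjusted p of 0.05 over all tested probes. The values of H19 and PEG3 c are descriptions, and their fill is not read as a call. H19 (1.69) and IGF2R a (0.56) lay above 0, GRB10 a (-0.43), PEG3 a (-1.53) and PEG3 c (-1.04) lay below 0, and the interval of GRB10 b ran from -1.43 to 2.53.

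The other imprinted genes had ratios close to 0 with co-culture by the brightest tested probe of each. The second tested probe of NAP1L4, named after its values were seen, had -3.86 on P114 replicate 1 and -0.05 on replicate 2, while the brightest had -0.06 and 0.17. Of 41 listed genes 25 were on the array and 16 passed the filter on dim probes. In P114, 7 were higher and 9 lower by sign, with a median log2 ratio of -0.01, beside 0.01 over 10456 genes, and in CMT-U27 11 were higher and 5 lower, with a median of 0.03, beside 0.03. None passed in either line (0 of 16). The largest mean ratios with 1 sign on both arrays were those of TSSC4, a neighbour in the same imprinted region, at 0.17 ± 0.23 in P114 and 0.13 ± 0.01 in CMT-U27, INPP5F, a phosphoinositide phosphatase, at -0.16 ± 0.07 in P114, and IMPACT, a regulator of the translation kinase GCN2, at 0.12 ± 0.02 in CMT-U27. PPP1R9A, which encodes an actin-binding protein, followed with -0.07 ± 0.08 in P114 and UBE3A with 0.09 ± 0.11 in CMT-U27.

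Between lines, 3 of the 16 were higher in P114 and 4 lower, beside 19.4% and 24.1% of all genes tested. SGCE, among the lower ones, passed the filter on dim probes through CMT-U27 alone. Its difference is a description given no p, though it is in this count. IMPACT was 0.88 higher on the log2 scale (adjusted p = 0.00197), and COPG2, a coat protein gene beside MEST, was 0.67 higher (adjusted p = 0.00500). OSBPL5, a lipid transfer protein gene, differed by -0.68 (adjusted p = 0.0254). UBE3A, a ubiquitin ligase gene, was 0.44 higher by its brightest probe while another of its 3 probes stood at -0.85.

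Of the IGF pathway genes, none passed with co-culture. Between the lines 4 came under the threshold, among them IGF2BP1 and GRB14, whose differences are descriptions with no call. Of 25 listed genes 21 were on the array and 15 were tested, and 7 were higher and 8 lower by sign with co-culture in P114 (median -0.00), 11 higher and 4 lower in CMT-U27 (median 0.03), with 0 passing. Over all genes tested 53.9% were higher by sign in P114 and 72.1% in CMT-U27. Both IGF1 probes were too dim to be tested, and INSR, the insulin receptor, had ratios of 0.02 ± 0.03 in P114 and 0.01 ± 0.00 in CMT-U27. GRB2, an adaptor of growth factor receptors, had -0.21 ± 0.29 in P114 and 0.08 ± 0.08 in CMT-U27. IGFALS, which stabilises IGFs in serum, had -0.10 ± 0.01 in P114, IGF2BP2 had -0.04 ± 0.02 there, and the adaptor gene SHC1 had 0.12 ± 0.06 and GRB14 0.12 ± 0.09 in CMT-U27. Between lines 3 of 15 were higher in P114 and 1 lower, beside 19.4% and 24.1% of all genes tested. These counts include IGF2BP1 as higher and GRB14 as lower, though each passed the filter on dim probes through 1 line alone.

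IGFBP7 and IGFBP4 encode secreted proteins that bind IGFs. IGFBP7 averaged 13.2 and 13.1 on the P114 arrays, against 8.85 and 8.79 on the CMT-U27 arrays, a difference of 4.33 (adjusted p = 1.69e-06). IGFBP4 was 2.69 higher by its brightest probe (adjusted p = 1.73e-05) and 2.89 by the other. IGF2BP1, which binds the IGF2 and H19 transcripts, was at least 3.52-fold higher in P114 in co-culture and 3.30-fold in single culture. No CMT-U27 channel was well above background for it. GRB14, a relative of GRB10, was not well above background in P114 by its brightest probe. By that probe P114 was at least 4.45-fold lower in co-culture and 4.17-fold lower in single culture, while the other tested probe stood at -0.73. IGF2BP1 passed the filter on dim probes through P114 alone, and the brightest GRB14 probe through CMT-U27 alone. Their differences are therefore descriptions given no p, though both are in the counts of IGF genes above.

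Among 11 tested genes of imprint maintenance, of 15 listed, 0 passed with co-culture. In P114 6 were higher and 5 lower by sign, with a median of 0.05, and in CMT-U27 9 were higher and 2 lower, with a median of 0.07, beside the 53.9% and 72.1% of all genes that were higher. DNMT1, the maintenance DNA methyltransferase, had a mean ratio of 0.25 ± 0.20 in P114 and -0.08 ± 0.02 in CMT-U27. CTCF, which binds the H19 and IGF2 control region, had 0.11 ± 0.06 in P114 and 0.10 ± 0.11 in CMT-U27 by its brightest probe. Its other tested probes had P114 mean ratios of -0.10, 0.03 and -0.15. TET1, a 5-methylcytosine oxidase, had -0.15 ± 0.11 in P114. In CMT-U27 UHRF1 had 0.13 ± 0.08 and SETDB1 0.10 ± 0.09. Between lines 1 of the 11 was higher in P114, UHRF1 at 0.44, and 4 were lower, beside 19.4% and 24.1% of all genes tested. The lower ones included CTCF at -0.66 by its brightest probe, with others up to 0.21, SETDB1 at -0.63, with others from -0.70 to -0.31, and ZNF445, a zinc finger gene, at -0.50 (adjusted p = 0.0280), with others up to 0.08.

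CDKN1C itself had no probe, and of the 6 other CDK inhibitor genes listed, 3 were tested. By its brightest probe CDKN1A, the p53 target p21, was lower with co-culture on both P114 arrays by value (-0.39 ± 0.18). It was not lower in CMT-U27 (0.19 ± 0.10), and there was no call. Its other probes had P114 mean ratios of -0.57 and 0.01. The brightest CDKN1A probe was 3.95 higher in P114 than in CMT-U27 (adjusted p = 1.69e-06). Another of its 3 probes was 3.48 higher, and the remaining probe stood at -0.10. CDKN2C was 0.42 higher in P114 (adjusted p = 0.0281). CDKN1B, which encodes p27, had co-culture ratios of 0.10 ± 0.11 in P114 and 0.00 ± 0.00 in CMT-U27, and no call.

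The genes whose pattern over the 8 channels lay closest to that of H19, by the root mean square distance of log2 levels after centring, were IL18BP (0.30), CD38 (0.39), PGR (0.40), CYB5A (0.40) and MYO18A (0.41), of 10451 genes compared. They encode an interleukin-18 binding protein, an NAD-consuming ectoenzyme, the progesterone receptor, cytochrome b5 and an unconventional myosin. Pearson's r with H19 over the 8 channels was 0.95, 0.93, 0.94, 0.91 and 0.93, and the channels share arrays in pairs. They were chosen for this likeness, so the distance and r are descriptions. Their mean P114 co-culture ratios ran from -0.63 to -0.38, each closer to 0 than that of H19, and PGR was not well above background in CMT-U27.

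Markers of other cells were read beside these results. The summed linear level of 17 macrophage markers was 3759 and 3035 in P114 co-culture, against 3862 and 3289 in P114 single culture, and 2980 and 3134 in CMT-U27 co-culture, against 2876 and 3066 in CMT-U27 single culture. Of the 17 markers, 16 and 4 were well above background in the P114 co-culture channels and likewise 16 and 4 in P114 single culture, and 4 and 4 in CMT-U27 co-culture, against 2 and 3 in CMT-U27 single culture. PTPRC, the common leukocyte antigen, was not well above background in any channel, and CSF1R and MRC1 only on P114 replicate 1. CD86, a costimulatory protein of antigen-presenting cells, had a P114 ratio of -0.35 ± 0.00. In co-culture it was at least 4.01-fold higher in P114 than in CMT-U27. It passed the filter on dim probes through P114 alone, so this difference is a description given no p. CD68, a lysosomal protein of macrophages, was lower in P114, with a log2 difference of -0.61 (adjusted p = 0.0197). Of the 5 macrophage genes tested, CD68 alone was called lower, beside 24.1% of all genes tested. On the higher side only CD86 came under the threshold, beside 19.4% of all genes tested, and it is not read as a call.

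All 12 tested epithelial genes were called lower in P114, beside 24.1% of all genes tested. Their median line difference was -2.04, with KRT19 at -4.14 (adjusted p = 2.54e-06). EPCAM, 1 of the sorted surface proteins, differed by -2.61. Of 9 tested fibroblast genes 2 were called higher in P114, the collagen genes COL1A2 (2.69) and COL1A1 (0.47), and 0 lower. Over all genes tested 19.4% were called higher and 24.1% lower. The median line difference of the fibroblast genes was 0.15, FAP stood at -0.17, and 1 of the THY1 probes stood at -2.09. CD44, the other sorted protein with a gene probe of that name, was 1.43 higher by its brightest probe and 0.08 by another. The markers and H19 were compared between the same lines, and the part of the marker differences in that of H19 was not tested.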

How the data were processed

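The authors' deposited scanner files give, for each spot, mean linear intensity and local background from Agilent Feature Extraction, version 10.10.1.1 per the file headers and 10.7.3.1 per the submitters' processing notes. Their log10 ratio is, per the file headers, Cy5 over Cy3 from the software's own processed signals, and the authors' series value table held that same log10 ratio (largest gap 0), with no turning for dye. Per the labels' protocols, RNA was labelled with a kit named for miRNA. Deposited flags of 0 or 1 marked spots well above background, saturated (0 spots) or non-uniform. The array design is 021193, on CanFam3.1 per the file headers. Gene symbols were taken from the files, and all 8 listed symbols are in the RefSeq table of another dog assembly, used for names only.

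Spot means were corrected with normexp (offset 50) against the local background, loess was applied within arrays with 1417 control spots at weight 0, spots of a probe were averaged, and ratios were turned to co-culture over single culture on the log2 scale. Probes were tested if both arrays of at least 1 line and culture showed them well above background, 28692 of 43603, after 40 were lost to a marked spot. limma 3.58.1 (R 4.3.3) fitted the ratios with a coefficient per line and a dye term, with 1 residual degree of freedom beside 2.76 prior, and the mean level of both channels after Aquantile by line, with 2 beside 4.57. Calls used a Benjamini-Hochberg adjusted p under 0.05. The scripts were tested on simulated data. A gene with several probes was shown by its brightest tested probe. Figures used matplotlib 3.10.9 in Python 3.11.15. The number of arrays limits the precision.

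The members, the gene lists and the tests were chosen with earlier results of these data known. Every member probe was to be named, and of each list the 3 genes with the largest called line difference, the 3 with the largest co-culture ratio of 1 sign in each line, and the 5 genes nearest H19 in pattern. IGF2BP1, INSR and the second NAP1L4 probe were added after their values were seen. Marker lists are summarised, and only some of the genes this rule picks from them are printed. Alternatives covered background correction, scanner signals, the series value table, centring, the dim-probe filter, marked spots, the dye term, the eBayes trend, normalization between arrays, 1 culture alone, the mean over probes and each array left out.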

Additional observations from a re-analysis of the deposited data

Results flagged for a closer look

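GRB10 b differed in its co-culture ratio by -2.52 on the log2 scale between P114 and CMT-U27, since both P114 arrays lay below 0 and both CMT-U27 arrays above it. In P114 the value came from replicate 1 (-4.84), whose Cy5 spot had a local background of 21859, and replicate 2 stood at -0.01, against 0.11 and 0.09 in CMT-U27. PEG3 b, 1 of the probes matched by description, differed by -0.13, with both P114 arrays below 0 (-0.00 and -0.21) and both CMT-U27 arrays above it (0.01 and 0.03). Of the P114 arrays, only replicate 1 showed it well above background. Neither difference passed in the limma fit over all probes, where 0 of 28692 did. No cause was tested.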

How the results depend on the processing

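The arrays were numbered by the order of their records. No paired analysis was possible because these numbers pair nothing across lines, and the cultures of a line are already paired within each array. The H19 ratio in P114 stayed between -1.91 and -1.10 under all 11 alternatives that gave a value, and 0 of these called it. Dropping the dim-probe filter or the dye term, keeping marked spots or leaving out a CMT-U27 array could not move it, and it stayed at -1.44. The series value table repeats the scanner software's log ratio. In CMT-U27 the H19 ratio was -0.33 with median centring in place of loess and 0.040 with no background correction. It was 0.49 both with the scanner software's log ratio and with the series value table. Median centring moved the median over all tested probes to 0.16 in P114 and 0.68 in CMT-U27. It called 5 probes in P114 and 17343 in CMT-U27, of which 17025 were higher and 318 lower, and the higher ones hold IGF2R a (0.94, against -0.13 with loess), b (0.99) and c (1.48) and PEG3 a (0.93) and c (0.50). It moved the list medians to 0.052 in P114 and 0.51 in CMT-U27 for other imprinted genes, to 0.11 and 0.25 for IGF genes, to 0.34 and 1.23 for imprint maintenance, and to 0.41 and 1.32 for CDK inhibitors. Taking the mean over a gene's tested probes gave 0.014 for IGF genes in CMT-U27, 0.0026 in P114 and 0.030 in CMT-U27 for imprint maintenance, and -0.010 for CDK inhibitors in P114. Ratio calls in CMT-U27 were 12 with no background correction and 1 with probes well above background in every channel. Leaving out 1 array gave 0 to 64 ratio calls in P114 and 0 to 17 in CMT-U27.

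The H19 line difference was 1.58 to 1.79 when an array was left out, 1.28 with no normalization between arrays and 0.97 in co-culture channels alone. Line calls over the array numbered 5890 with no normalization between arrays, 4348 in single-culture and 4387 in co-culture channels alone, and 7494 to 19350 when an array was left out, with 19350 of them without P114 replicate 2. Counted with H19, calls among the member probes were 1 with scanner signals, 1 with no dim-probe filter and 0 with no normalization between arrays. They were 1 in single culture alone and 0 in co-culture alone. A fit with an array left out holds 1 array of a line, whose spread is not measured, so its counts are descriptions. GRB10 b turned to -0.93 without P114 replicate 1 and was 2.03 without P114 replicate 2. The causes were not tested. H19 has no value where every channel had to be well above background. With 2 arrays a line, and H19 near background in CMT-U27, small changes could not be measured.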
